A study of Mus musculus with 12 samples.

Results

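The genes described here encode the eukaryotic translation initiation factors of families 1 to 6 in the mouse, measured as mRNA by RNA sequencing in a red cell progenitor line. They were chosen by symbol alone, as every gene whose name starts with Eif1 to Eif6, leaving out the eIF2 kinases (Eif2ak). This gave 51 of the 32699 genes in the deposited files, and 47 of them passed the expression filter, against 8273 of all genes. The 4 that did not pass were Eif2s3y, Eif4e1b and Eif4e3, with 0 counts in all 12 libraries, and Eif4ebp3, with 62.14 counts over the 12 libraries and at most 0.392 CPM (counts scaled to the library total) in any of them. In a single library, 3 counts would be 0.129 to 0.171 CPM, so each of the genes at 0 lay below that level.

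All 12 libraries came from G1E-ER4 cells, a line derived from mouse embryonic stem cells without functional Gata1 and carrying GATA-1 fused to the ligand-binding part of the estrogen receptor. Estradiol activates the fusion and starts red cell maturation. The groups of 3 libraries each were TMG_E2 (10 µM Thiamet-G with 1 µM β-estradiol for 30 h), E2 (1 µM β-estradiol for 30 h), TMG (10 µM Thiamet-G for 30 h) and Ctrl (untreated, with no vehicle named). Every group carried the GATA-1 fusion and grew in erythropoietin, stem cell factor and puromycin at passages 35 to 40. Thiamet-G inhibits OGA, the enzyme that takes the sugar O-GlcNAc off proteins, and the study asked whether this changes the gene program of erythroid maturation. There were no cells without the fusion given estradiol, so other effects of estradiol and those of GATA-1 cannot be told apart.

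Translation initiation starts when eIF2, loaded with GTP and the initiator tRNA, joins the small ribosomal subunit together with eIF1, eIF1A, eIF3 and eIF5. The cap-binding protein eIF4E, the helicase eIF4A and the scaffold eIF4G bring this complex to the mRNA, which is scanned for a start codon. eIF5 then triggers GTP hydrolysis on eIF2, eIF5B joins the large subunit, and eIF2B reloads eIF2 with GTP. Maturing red cells make large amounts of globin while their other protein synthesis declines, and in them the kinase HRI couples eIF2 activity to the supply of heme.

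The libraries held 17589380 to 23178721 expected counts. The deposited labels give the cell type as embryonic stem cell, but none of 5 stem cell marker genes passed the filter, 3 were at 0 in every library, and the highest value was 0.281 CPM (Nanog). Summed over 8 erythroid markers, CPM was 41200 to 47100 in TMG_E2, 40600 to 43800 in E2, 1600 to 1710 in TMG and 1420 to 1450 in Ctrl libraries. Summed over 4 mast cell markers, of which 3 passed the filter and 1 was at 0 throughout, it was 0.321 to 0.599 in TMG_E2, 0.28 to 0.91 in E2, 77.4 to 93.9 in TMG and 76.8 to 100 in Ctrl libraries. Summed over 4 megakaryocyte markers, none of which passed the filter, it was 13.6 to 16.6 in TMG_E2, 11.2 to 14.5 in E2, 9.72 to 10.5 in TMG and 6.75 to 9.47 in Ctrl libraries. Over 4 lymphoid markers, also all below the filter and 2 of them at 0 throughout, it was 0 to 0.214 in TMG_E2, 0.0935 to 0.281 in E2, 0.664 to 1.22 in TMG and 0.711 to 0.849 in Ctrl libraries. These shifts move with every estradiol result below, and their part in them was not tested. The labels do not say whether the 3 libraries of a group came from separate cultures, and the p-values rest on their spread, which may be only technical.

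Per length, the family made up a smaller part of the mRNA pool in the cells given estradiol. The 51 genes took 1.126% to 1.139% of all TPM (transcript share scaled for length and depth) in TMG_E2, 1.157% to 1.165% in E2, 1.439% to 1.465% in TMG and 1.478% to 1.496% in Ctrl libraries. The libraries with and without estradiol did not overlap. TPM shares are relative, and fewer cells of a kind cannot be told apart from less RNA per cell in these bulk samples. Eif5a, whose protein helps the ribosome through difficult peptide bonds, had the highest mean level in each group, with 1123 TPM in TMG_E2, 1227 TPM in E2, 2160 TPM in TMG and 2221 TPM in Ctrl. Eif4a1, the main helicase gene, came next with 1068, 1073, 1466 and 1439 TPM in the same order of groups. The third was Eif1, a start codon fidelity factor, with 903.1, 858.4, 573.5 and 567.4 TPM. Eif5a and Eif4a1 were thus lower with estradiol and Eif1 higher, while the order of these genes stayed the same. Among tested members, Eif5a2, the second eIF5A gene, was the lowest in each group at 9.41, 9.34, 15.01 and 13.98 TPM.

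The first question was what estradiol did to the family without Thiamet-G. In E2 against Ctrl libraries 39 of the 47 tested members were called (edgeR, adjusted p under 0.05), 28 lower and 11 higher. The share called was 83%, beside 82.7% of all genes tested, so being called does not set the family apart. Members called lower made up 59.6%, beside 41.2% of all genes, and members called higher 23.4%, beside 41.5%. The median log2 fold change was -0.206 over the members and -0.001 over all genes tested. Most changes were small: 1 member, Eif1a, was called with a change of 2-fold or more, whereas 17.3% of all genes were. With libraries scaled by their size alone, 5 members were called higher and 32 lower, beside 34.7% of all genes higher and 47.8% lower. The small rises of Eif2b2, Eif3a, Eif3f, Eif3h, Eif3k and Eif4g2 then no longer passed, and Eif3c, Eif3d, Eif3j1 and Eif3m were called lower. All 47 tested members were above 10 CPM in every library, the lowest value being 15.1 CPM for Eif3j2, so none had passed the filter through 1 group alone.

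**Figure D1:**
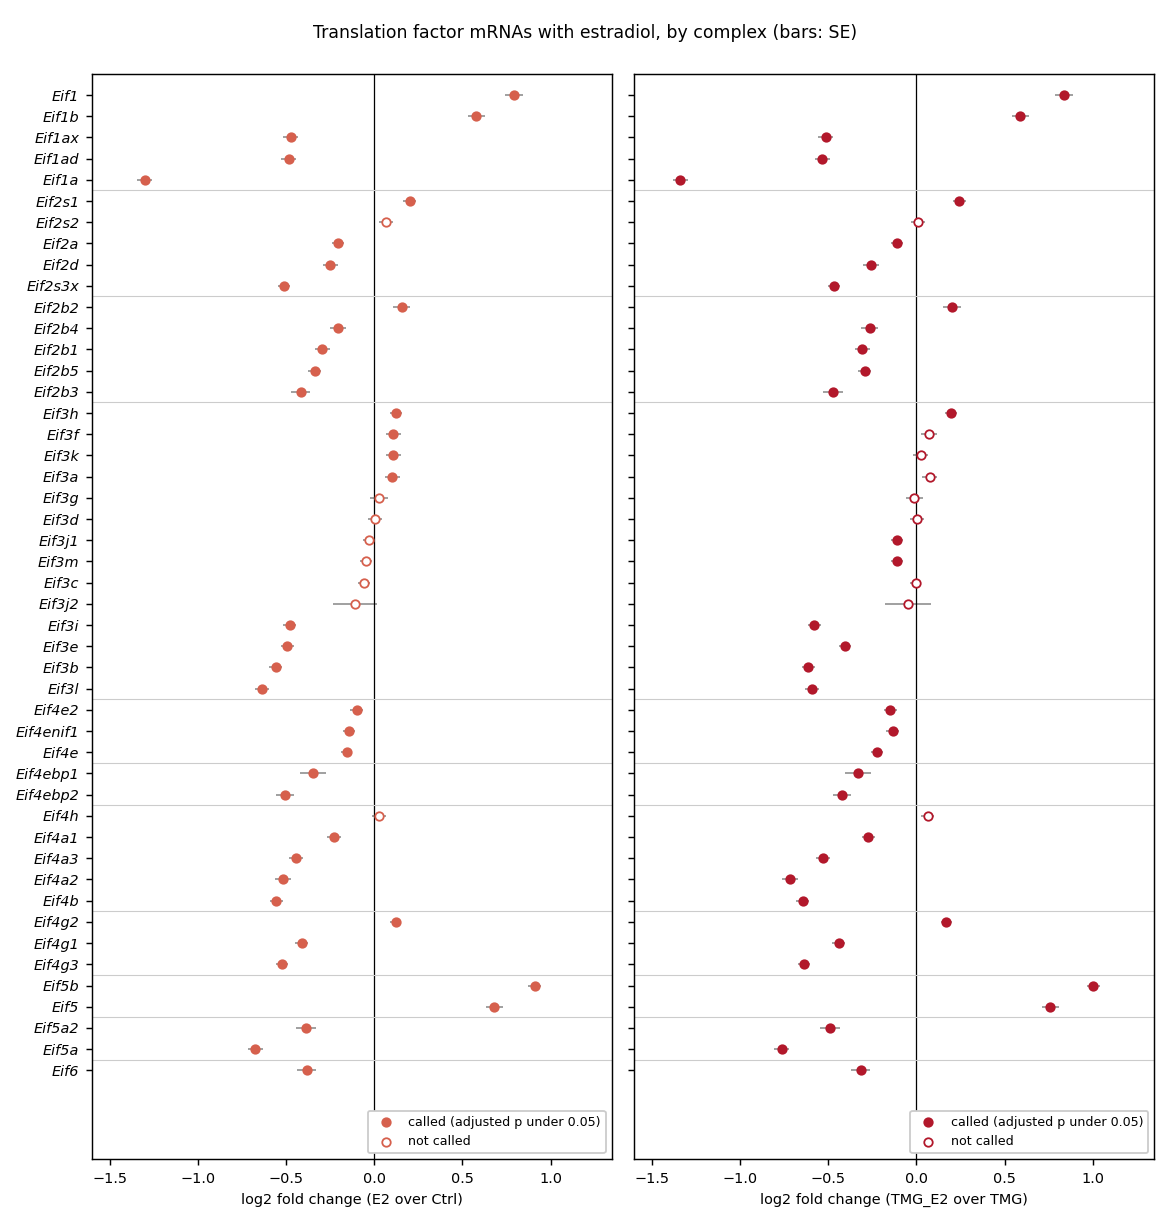
Log2 fold change of each tested member in E2 over Ctrl (left) and TMG_E2 over TMG (right), grouped by complex in the order in which the text describes them; bars are SE, filled points passed the test. Eif5b, Eif1, Eif5 and Eif1b lie furthest to the right in both panels and Eif1a furthest to the left.

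Among the factors that act at the start codon, the genes for eIF1, eIF5 and eIF5B rose and those for eIF1A fell. Eif5b, the GTPase that joins the ribosomal subunits, had 799.8, 809.7 and 806.3 CPM in E2 libraries, against 422.9, 437.6 and 426.1 CPM in Ctrl libraries. All E2 libraries were far above all Ctrl libraries, with a log2 fold change of 0.91 ± 0.04 (SE, adjusted p = 3.12e-13). Eif1, which holds the scanning ribosome open until a good start codon is met, had 704.7, 687 and 644.1 CPM in E2 against 390.8, 398.9 and 385.6 CPM in Ctrl libraries (log2 0.79 ± 0.05, adjusted p = 1.22e-10). Eif5, the GTPase-activating protein of eIF2, had 1022, 1100 and 1080 CPM in E2 against 624.8, 697.6 and 676.7 CPM in Ctrl libraries (log2 0.68 ± 0.05). Eif1b, a close copy of Eif1, rose too (log2 0.58 ± 0.05), with 66.7 ± 2.58 CPM in E2 and 44.7 ± 0.596 CPM in Ctrl libraries (SD, n = 3 each). The E2 and Ctrl libraries did not overlap for these 4 genes, nor for 85.9% of all genes tested, so this sets nothing apart. The 4 were called in E2 vs Ctrl under all 13 alternative settings.

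Eif1a, which encodes a form of eIF1A, the partner of eIF1 in scanning, showed the largest change in the family. It had 66.9, 66.8 and 70.9 CPM in E2 libraries, against 169.5, 164.8 and 170.1 CPM in Ctrl libraries (log2 -1.30 ± 0.04, adjusted p = 9.85e-15). Its X-linked paralog Eif1ax fell less, with 91.3 ± 4.39 CPM in E2 and 126.8 ± 1.04 CPM in Ctrl libraries (log2 -0.47 ± 0.04). Within a library, the TPM of Eif1ax was 2.51, 3.1 and 2.74 times that of Eif1a in E2, against 1.55, 1.68 and 1.53 times in Ctrl. The balance therefore lay further toward Eif1ax in every E2 library, by 0.81 on the log2 scale. For this and 31 other ratio tests of paralogs the exact two-sided permutation test on 3 against 3 libraries cannot go below p = 0.1, which it reached here (0.2 after Benjamini-Hochberg adjustment over the 32 tests). Eif1ad, which carries an eIF1A-like domain, fell as well (log2 -0.48 ± 0.04).

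**Figure D2:**
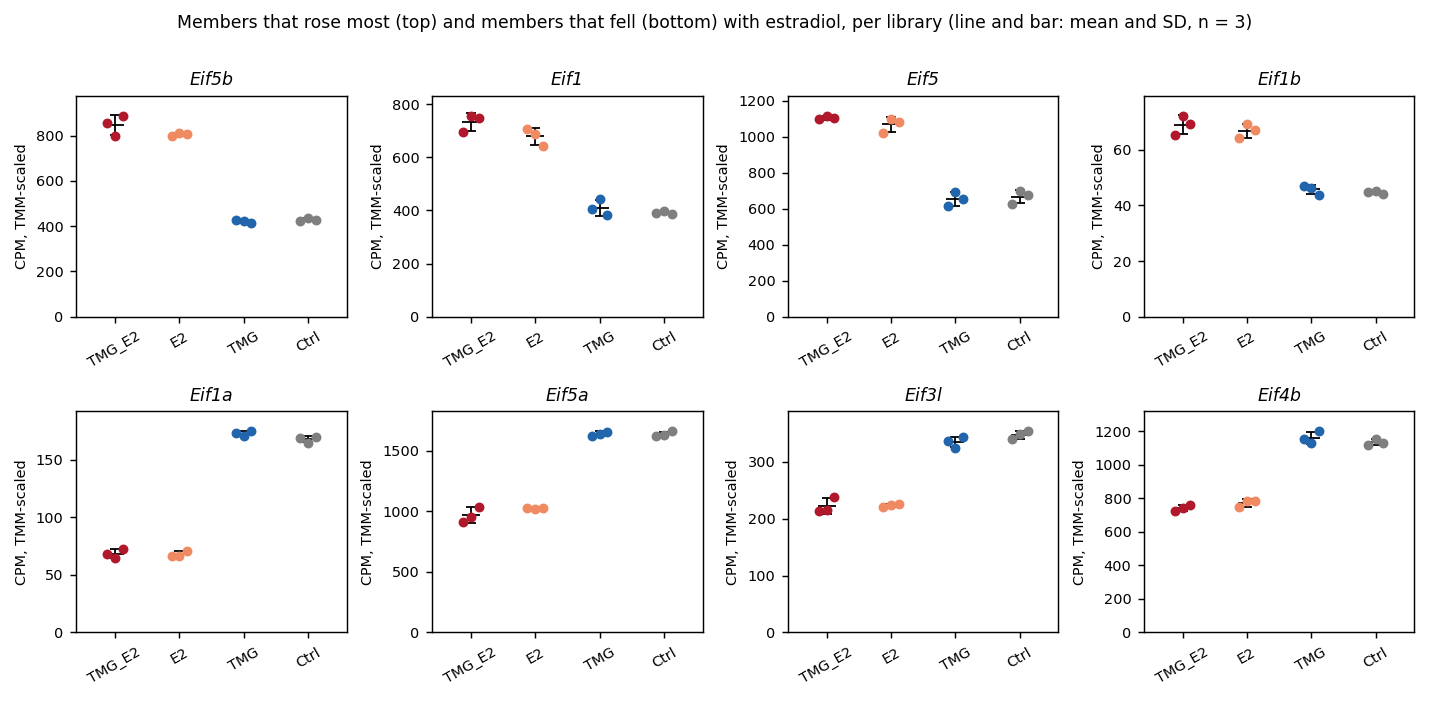
TMM-scaled CPM in each library for the 4 members that rose most (top) and 4 that fell, Eif1a, Eif5a, Eif3l and Eif4b (bottom); points are libraries, lines and bars the mean and SD of 3. In every panel the TMG_E2 and E2 libraries lie apart from the TMG and Ctrl libraries, for example 799.4 to 888 CPM for Eif5b with estradiol and 415.9 to 437.6 CPM without.

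The promoters of the 4 genes that rose most, and of the 3 that fell most among members with a single window in the table (Eif3l, Eif3b and Eif4b), are shown because their mRNAs moved together in opposite directions. They come from RefSeq on GRCm38.p6 and run 5′ to 3′ from 250 bases before the start of transcription to 50 bases after it (300 in all). Capitals mark CACGTG, the E-box letters that MYC and USF proteins are known to bind. It reads the same on both strands, and a window without capitals does not hold it. Of the 51 genes, 39 had a window in the table (51 windows, some genes having several starts).
Eif5b, chr1:37997760-37998059, plus strand: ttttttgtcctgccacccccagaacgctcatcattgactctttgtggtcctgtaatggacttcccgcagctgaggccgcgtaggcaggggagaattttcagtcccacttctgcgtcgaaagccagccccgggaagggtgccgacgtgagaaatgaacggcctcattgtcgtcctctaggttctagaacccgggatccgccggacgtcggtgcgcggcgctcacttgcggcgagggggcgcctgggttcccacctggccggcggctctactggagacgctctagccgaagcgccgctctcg
Eif1, chr11:100319699-100319998, plus strand: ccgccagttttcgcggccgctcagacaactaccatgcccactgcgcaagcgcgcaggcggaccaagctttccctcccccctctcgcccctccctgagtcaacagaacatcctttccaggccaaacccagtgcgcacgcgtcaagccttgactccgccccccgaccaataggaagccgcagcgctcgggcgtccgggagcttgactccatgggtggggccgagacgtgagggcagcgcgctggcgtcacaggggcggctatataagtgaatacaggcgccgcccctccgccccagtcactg
Eif5, chr12:111537851-111538150, plus strand: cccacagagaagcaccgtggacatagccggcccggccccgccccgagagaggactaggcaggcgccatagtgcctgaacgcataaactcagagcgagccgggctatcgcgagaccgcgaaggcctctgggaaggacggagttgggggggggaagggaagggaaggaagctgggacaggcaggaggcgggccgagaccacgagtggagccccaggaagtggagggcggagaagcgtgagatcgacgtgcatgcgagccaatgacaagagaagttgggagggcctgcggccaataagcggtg
Eif1b, chr9:120492356-120492655, plus strand: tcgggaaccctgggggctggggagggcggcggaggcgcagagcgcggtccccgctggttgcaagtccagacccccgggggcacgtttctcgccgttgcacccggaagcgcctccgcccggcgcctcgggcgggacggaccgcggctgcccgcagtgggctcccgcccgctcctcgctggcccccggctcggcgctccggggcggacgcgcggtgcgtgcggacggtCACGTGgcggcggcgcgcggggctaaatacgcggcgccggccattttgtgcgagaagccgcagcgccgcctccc
Eif3l, chr15:79074973-79075272, plus strand: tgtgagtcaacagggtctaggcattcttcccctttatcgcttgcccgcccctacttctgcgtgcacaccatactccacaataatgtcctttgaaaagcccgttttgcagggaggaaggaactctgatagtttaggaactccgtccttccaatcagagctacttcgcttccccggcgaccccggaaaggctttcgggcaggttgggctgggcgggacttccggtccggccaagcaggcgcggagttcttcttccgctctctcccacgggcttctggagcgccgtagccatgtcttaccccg
Eif3b, chr5:140419055-140419354, plus strand: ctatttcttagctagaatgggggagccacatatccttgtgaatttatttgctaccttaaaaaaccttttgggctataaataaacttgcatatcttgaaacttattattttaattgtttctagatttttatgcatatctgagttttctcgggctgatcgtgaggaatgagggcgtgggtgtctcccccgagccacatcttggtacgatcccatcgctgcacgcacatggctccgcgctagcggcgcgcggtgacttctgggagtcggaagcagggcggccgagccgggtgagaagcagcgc
Eif4b, chr15:102073523-102073822, plus strand: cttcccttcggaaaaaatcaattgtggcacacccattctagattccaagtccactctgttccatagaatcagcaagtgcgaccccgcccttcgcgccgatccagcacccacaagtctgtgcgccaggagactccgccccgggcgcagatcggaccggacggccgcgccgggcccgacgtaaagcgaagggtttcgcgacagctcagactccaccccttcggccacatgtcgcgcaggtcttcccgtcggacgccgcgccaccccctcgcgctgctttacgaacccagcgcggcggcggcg
Of these windows, that of Eif1b, which rose, holds CACGTG, with 1 match. Eif1a, which fell most in the family, had no window. Eif5a, which also fell more than Eif3l, had several windows, some of them with CACGTG, and is not printed. Over the family, 10 of 39 genes (25.6%) had CACGTG in at least 1 window, against 13.1% of the genes tested that had a window and 8.09% of all genes with a window. It occurred in 4 of 9 members called higher (Eif1b, Eif3a, Eif3f and Eif3k) and in 5 of 22 called lower (Eif4a1, Eif4e, Eif4g1, Eif5a and Eif5a2), so it was found on either side. The calls of Eif3a, Eif3f and Eif3k did not pass with libraries scaled by size alone. The GATA motif AGATAA, searched on both strands and unable to overlap the E-box, was in 1 member window, that of Eif3c, which was not called, and in none of those printed; the share was 2.56% of members, 7.26% of genes tested and 12.7% of all genes. Median GC content of the windows was 62.7% for members, 61.3% for genes tested and 52.7% for all. A match is a description of letters in this window only.

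The genes for eIF2, which carries the initiator tRNA, did not move together. Eif2s1, the alpha subunit that stress kinases phosphorylate, had 403.4, 398.6 and 396.8 CPM in E2 libraries, against 338.2, 354.5 and 350 CPM in Ctrl libraries (log2 0.20 ± 0.04, adjusted p = 5.77e-05). With libraries scaled by size alone, Eif2s1 was at 0.10 and still called. By deposited TPM it averaged 184.1 in E2 and 183 in Ctrl libraries, with overlap, so its rise was not seen there. Eif2s2, the beta subunit, was not called, at 370.1 ± 9.06 CPM in E2 and 352.9 ± 16.6 CPM in Ctrl libraries (log2 0.07, 95% interval -0.015 to 0.153; -0.03 and not called with libraries scaled by size alone). Eif2s3x, the gamma subunit that binds GTP and tRNA, had 343.2, 336.3 and 348 CPM in E2 against 478.1, 485.7 and 501 CPM in Ctrl libraries (log2 -0.51 ± 0.04, adjusted p = 3.1e-10). Its Y-linked copy Eif2s3y was at 0 counts in all libraries. Eif2a and Eif2d, which are not eIF2 subunits but can deliver initiator tRNA by other routes, fell by 0.21 and 0.25 on the log2 scale.

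All 5 subunit genes of eIF2B, the exchange factor that reloads eIF2, were called, 4 lower and 1 higher. The highest was Eif2b2, the beta subunit, with 92.4, 89.6 and 94.5 CPM in E2 against 84.0, 80.2 and 84.1 CPM in Ctrl libraries (log2 0.15 ± 0.05, adjusted p = 0.00914; 0.06 and not called with libraries scaled by size alone). The lowest was Eif2b3, the gamma subunit, with 40.3 ± 3.01 CPM in E2 and 53.7 ± 0.921 CPM in Ctrl libraries (log2 -0.42 ± 0.05, adjusted p = 1.82e-06). Eif2b5, the catalytic epsilon subunit, was at log2 -0.34 ± 0.04, Eif2b1 at -0.29 ± 0.04 and Eif2b4 at -0.21 ± 0.05. By deposited TPM, Eif2b2 averaged 88.48 in E2 and 90.92 in Ctrl libraries, so its rise was not seen there.

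By TMM-scaled CPM, the eIF3 complex, the largest initiation factor, split into members that fell and members close to their Ctrl level. Of its 14 tested genes, 4 were called lower and 4 slightly higher. Eif3l fell most, with 221.3, 223.7 and 226.5 CPM in E2 against 340.7, 348.6 and 353.7 CPM in Ctrl libraries (log2 -0.64 ± 0.04, adjusted p = 1.51e-10). Eif3b, a scaffold subunit, was at log2 -0.56 ± 0.04, Eif3e at -0.49 ± 0.04 and Eif3i, a partner of the b subunit, at -0.48 ± 0.04. The 4 that rose were Eif3h, Eif3f, Eif3k and Eif3a, and for Eif3h, the highest, CPM was 360.8, 364.6 and 360.1 in E2 against 322.6, 341 and 332.1 in Ctrl libraries (log2 0.12 ± 0.04, adjusted p = 0.00359). With libraries scaled by size alone these 4 rises were at log2 0.0041 to 0.0264 and did not pass. By deposited TPM the same 4 genes were lower in E2 than in Ctrl libraries, without overlap. Mean TPM in E2 and Ctrl was 472 and 495.8 for Eif3h, and 504 and 535.7 for Eif3k. For Eif3f it was 455.3 and 483.2, and for Eif3a 293 and 312. The direction of these 4 changes thus depended on the scaling. Leaving out 1 library also ended 3 of these calls: Eif3a did not pass when any single E2 library, or Ctrl replicate 1 or 3, was left out (adjusted p 0.0518 to 0.0991), Eif3f without E2 replicate 1 or 2 or Ctrl replicate 2 or 3 (0.0658 to 0.125), and Eif3k without E2 replicate 2 or Ctrl replicate 2 or 3 (0.0528 to 0.1). By place in the complex, the core of PCI and MPN subunits (a, c, e, f, h, k, l and m) held 2 genes called lower, 4 called higher and 2 not called. Of the b, g and i module Eif3g was not called.

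The 6 eIF3 genes not called were Eif3c, Eif3d, Eif3g, Eif3j1, Eif3j2 and Eif3m, and except for Eif3j2 their 95% intervals lay within -0.129 and 0.133 on the log2 scale. By deposited TPM, all of them but Eif3j2 were lower in E2 than in Ctrl libraries, without overlap. Mean TPM in E2 and Ctrl was 401 and 477.6 for Eif3c, and 376.4 and 429.5 for Eif3d. How close these genes lay to their Ctrl level thus depended on the scaling. Eif3d, a peripheral subunit that can itself bind caps, was at 0.00 ± 0.04 and became -0.09 with libraries scaled by size alone, which passed (adjusted p = 0.0218). Eif3j1 and Eif3j2 are near-identical, and the deposited counts divide reads between them, which leaves Eif3j2 uncertain (-0.11 ± 0.13). Among the 12 subunit genes other than those of eIF3j, the highest TPM was 2.75 to 2.96 times the lowest in TMG_E2, 2.78 to 2.89 times in E2, 1.75 to 1.89 times in TMG and 1.79 to 1.8 times in Ctrl libraries. This ratio was thus larger in every library with estradiol than in any without it. The lowest gene was Eif3l in every library with estradiol. The ratio therefore follows the fall of Eif3l and does not show that the other subunit mRNAs became more unequal.

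**Figure D3:**
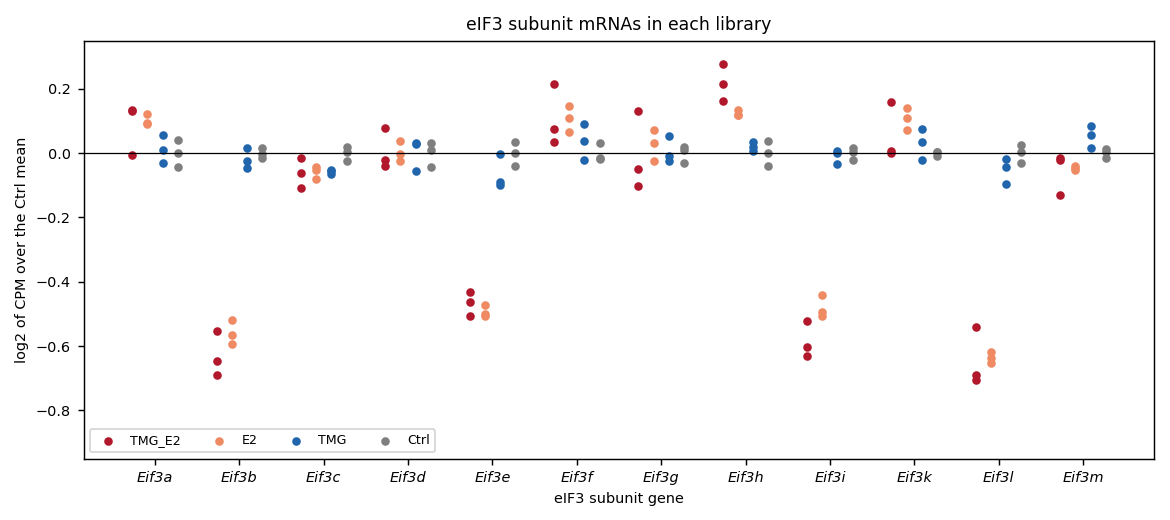
Each of 12 eIF3 subunit genes (x axis) in each library, as log2 of its CPM over the mean of the Ctrl libraries (y axis); the 4 colours are the groups, 3 points each. Eif3b, Eif3e, Eif3i and Eif3l lie below -0.4 in all TMG_E2 and E2 libraries, whereas the other 8 lie closer to 0 in every library.

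The cap-binding side of initiation fell with few exceptions. Eif4e, the cap-binding protein, had 204, 210 and 200.5 CPM in E2 against 223.8, 227.4 and 234 CPM in Ctrl libraries, a small fall without overlap (log2 -0.16 ± 0.03, adjusted p = 0.000377). Eif4e2, a cap-binding relative known as a repressor, fell less (log2 -0.10 ± 0.04, adjusted p = 0.0207; 0.053 to 0.0872 without replicate 2 or 3 of either E2 or Ctrl), and Eif4enif1, a carrier of eIF4E, was at -0.14 ± 0.04. The genes for the 4E binding proteins, which keep eIF4E from eIF4G when mTOR is inactive, both fell. Eif4ebp2 had 57.4, 60.9 and 61.9 CPM in E2 against 84.4, 82.9 and 89.0 CPM in Ctrl libraries (log2 -0.51 ± 0.05, adjusted p = 5.4e-08), and Eif4ebp1 was at 160.7 ± 16.5 CPM in E2 and 204.6 ± 6.82 CPM in Ctrl libraries (log2 -0.35 ± 0.07, adjusted p = 0.000309).

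Among the helicase genes, Eif4b, a helper of eIF4A, fell most, with 747.9, 785.8 and 786.3 CPM in E2 against 1118, 1156 and 1134 CPM in Ctrl libraries (log2 -0.55 ± 0.04, adjusted p = 1.48e-10). The highest in the group was Eif4h, a related helper, which was not called, at 473.9 ± 3.28 CPM in E2 and 465.6 ± 12.4 CPM in Ctrl libraries (log2 0.03, 95% interval -0.057 to 0.108; -0.07 and not called with libraries scaled by size alone). Eif4a2 (log2 -0.52 ± 0.05) and Eif4a3, part of the exon junction complex (-0.44 ± 0.04), had larger changes than Eif4a1 (-0.23 ± 0.04). Of the scaffolds, Eif4g3 had 99.2, 95.3 and 99.1 CPM in E2 against 139.5, 142.6 and 139.7 CPM in Ctrl libraries (log2 -0.52 ± 0.03, adjusted p = 1.82e-10), and Eif4g1, the main one, was at -0.41 ± 0.04. Eif4g2, which lacks the eIF4E binding site and serves cap-independent initiation, was the exception at 1469 ± 23.6 CPM in E2 and 1351 ± 5.69 CPM in Ctrl libraries (log2 0.12 ± 0.03, adjusted p = 0.00182). With libraries scaled by size alone it was at 0.02 and not called. Its mean TPM was lower in E2 (265.7) than in Ctrl libraries (279), so this direction depended on the scaling as well.

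Eif5a had 1027, 1022 and 1025 CPM in E2 libraries, against 1619, 1631 and 1659 CPM in Ctrl libraries (log2 -0.68 ± 0.04, adjusted p = 7.01e-11). Its paralog Eif5a2 fell by 0.39 on the log2 scale (SE 0.06), to 32.8 ± 2.88 CPM in E2, against 43.0 ± 1.12 CPM in Ctrl libraries. Eif6, which keeps large subunits from joining too early, had 124.3, 128.4 and 128.8 CPM in E2 against 174, 157.7 and 165.5 CPM in Ctrl libraries (log2 -0.38 ± 0.05, adjusted p = 4.35e-06). The E2 and Ctrl libraries of these 3 genes did not overlap, as for most genes tested.

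The same question asked in the presence of Thiamet-G uses different libraries, TMG_E2 against TMG. There 38 of 47 members were called (80.9%, beside 82.7% of all genes), 30 lower (63.8%, beside 41.8%) and 8 higher (17%, beside 40.9%), with a median log2 of -0.257 over members and -0.011 over all genes. Of the calls, 8 were higher and 28 lower in both comparisons, none was opposite, and 6 members were called in neither. The calls of E2 vs Ctrl alone were the small rises of Eif3a, Eif3f and Eif3k, and those of TMG_E2 vs TMG alone were the small falls of Eif3j1 and Eif3m. The log2 fold changes of the 2 comparisons had the same sign in 46 of 47 members (Pearson's r 0.99, Spearman's rho 0.979 across genes, which are not independent replicates and share the scaling and the fit). Eif5b was again the highest, with 855.1, 799.4 and 888 CPM in TMG_E2 against 429, 422.5 and 415.9 CPM in TMG libraries (log2 1.00 ± 0.04, adjusted p = 8.26e-14). Eif1a was again the lowest, with 67.9, 64.6 and 72.6 CPM in TMG_E2 against 173.2, 170.8 and 174.8 CPM in TMG libraries (log2 -1.34 ± 0.04, adjusted p = 6.86e-15).

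Thiamet-G by itself left the family close to the untreated level. In TMG against Ctrl libraries 1 of 47 members was called (2.13%, beside 5.15% of all genes), and the median size of the log2 fold changes was 0.03 over members and 0.058 over all genes tested. The called gene was Eif4g3, with 152.6, 152.1 and 156.4 CPM in TMG against 139.5, 142.6 and 139.7 CPM in Ctrl libraries, without overlap, as in 28.7% of all genes tested (log2 0.13 ± 0.03, adjusted p = 0.0358). That call did not pass when any library of either group was left out, nor with libraries scaled by size alone or without the filter; it passed in 5 of 13 alternatives, with adjusted p between 0.0218 and 0.155. Its paralog Eif4g1 was at log2 -0.07 ± 0.04 (not called), and the TPM of Eif4g3 was 0.155, 0.163 and 0.168 times that of Eif4g1 in TMG, against 0.136, 0.143 and 0.138 times in Ctrl libraries. At an unadjusted p under 0.05 there were 4 members (beside 18.9% of all genes), the other 3 being Eif5a2 (log2 0.15, adjusted p = 0.127), Eif4a3 (0.09, adjusted p = 0.21) and Eif2b1 (-0.11, adjusted p = 0.129). The 95% intervals of all 47 members lay within -0.268 and 0.265, and the widest was that of Eif3j2.

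**Figure D4:**
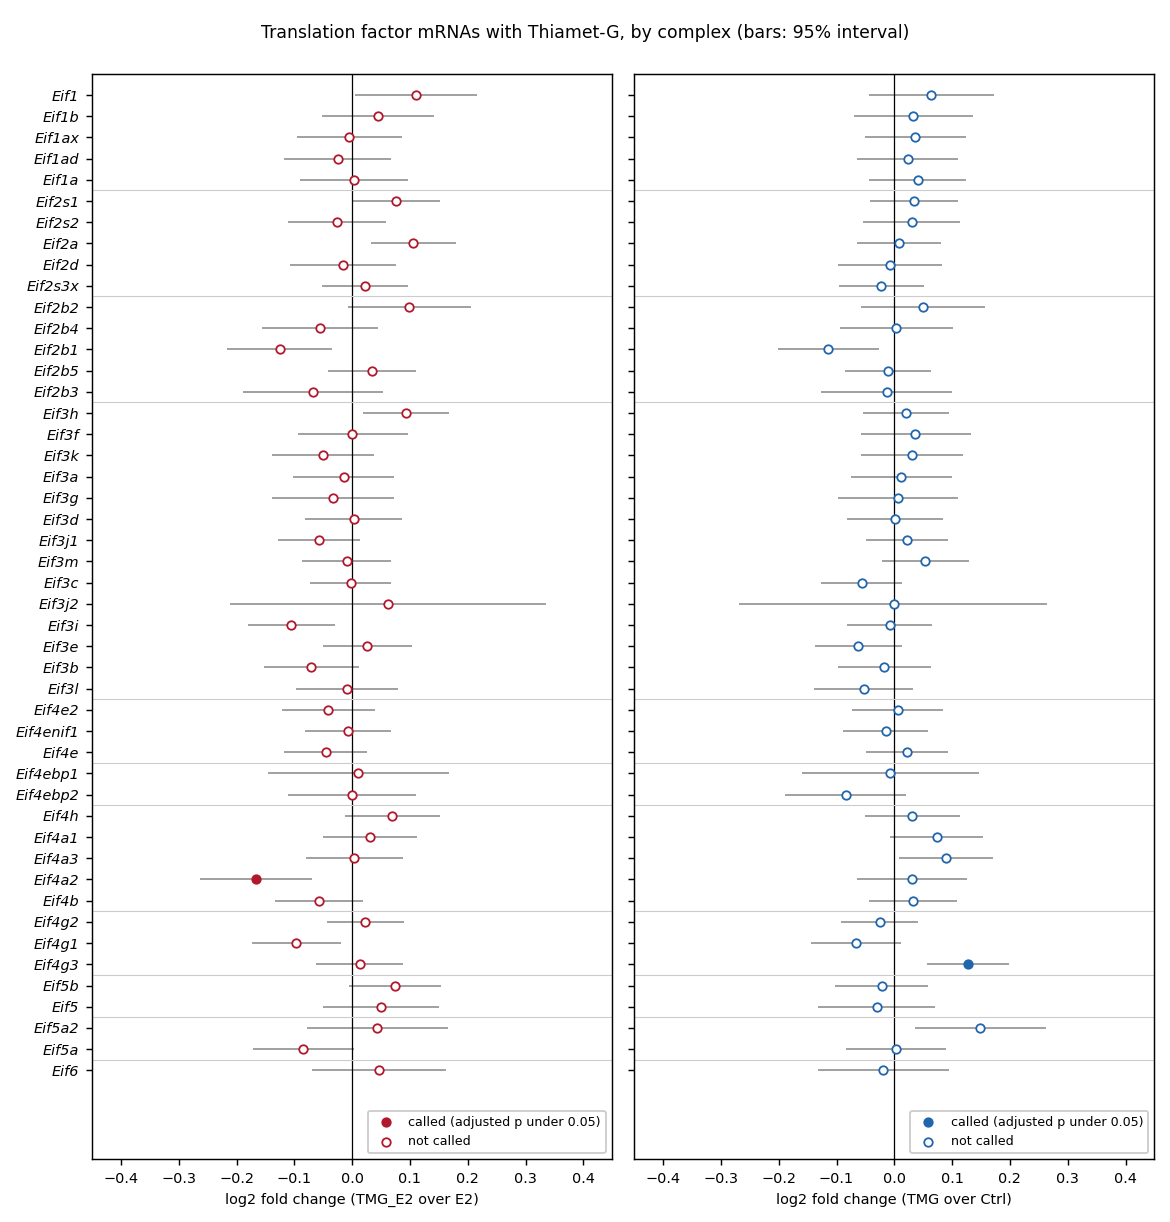
Log2 fold change of each tested member in TMG_E2 over E2 (left) and TMG over Ctrl (right), in the same order as in the estradiol plot; bars are 95% intervals, filled points passed the test. All values lie between -0.167 and 0.148, with Eif4a2 filled on the left and Eif4g3 on the right.

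In cells given estradiol, Thiamet-G again changed few members. In TMG_E2 against E2 libraries 1 of 47 was called (2.13%, beside 12.8% of all genes), and the median size of the log2 fold changes was 0.044 over members and 0.072 over all genes. Eif4a2 was lower, with 251.2, 214.6 and 233.3 CPM in TMG_E2 against 267.5, 250.5 and 267.4 CPM in E2 libraries (log2 -0.17 ± 0.05, adjusted p = 0.0257). The groups overlapped slightly, since the first TMG_E2 library lay above the second E2 library. The TPM of Eif4a2 was 0.119, 0.101 and 0.101 times that of Eif4a1 in TMG_E2, against 0.124, 0.119 and 0.126 times in E2 libraries, lower by 0.20 on the log2 scale without overlap (exact permutation p = 0.1, the smallest possible, and 0.2 after adjustment). This ratio was also lower without overlap in TMG vs Ctrl (by 0.049), where Eif4a2 was not called, and in both estradiol comparisons. It uses the same Eif4a2 reads as the call and is no separate support. The Eif4a2 call passed in 9 of 13 alternatives, with adjusted p between 0.00341 and 0.119. It did not pass without E2 replicate 1, E2 replicate 3 or TMG_E2 replicate 2, nor with only the compared groups in the fit. Exons of Eif4a2 overlap small RNA genes on its own strand and 186 bases of Rfc4 on the other, and whether the authors counted by strand is not known from the sources used here.

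With the replicate number as a block, a pairing that the labels do not state, 5 members were called in TMG_E2 vs E2. The block raised the share called to 17.6% over all genes as well, so the larger count is no result about the family. The 5 were Eif4a2 (log2 -0.17, adjusted p = 0.00892), Eif2b1 (-0.12, adjusted p = 0.0346), Eif3i (-0.11, adjusted p = 0.036) and Eif4g1 (-0.10, adjusted p = 0.0479), all lower, and Eif2a (0.11, adjusted p = 0.0424), higher. Without the block, 8 members had an unadjusted p under 0.05 (beside 27.9% of all genes), these 5 and Eif1, Eif2s1 and Eif3h. The TMG_E2 replicates differed more from each other (chi-square over degrees of freedom 8.67 to 13.2) than those of the other groups (2.41 to 4.17), and which members passed depended on them: without replicate 3 there were 6, all lower, and without replicate 2 there were 3, all higher. The 95% intervals of all members lay within -0.264 and 0.335.

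**Figure D5:**
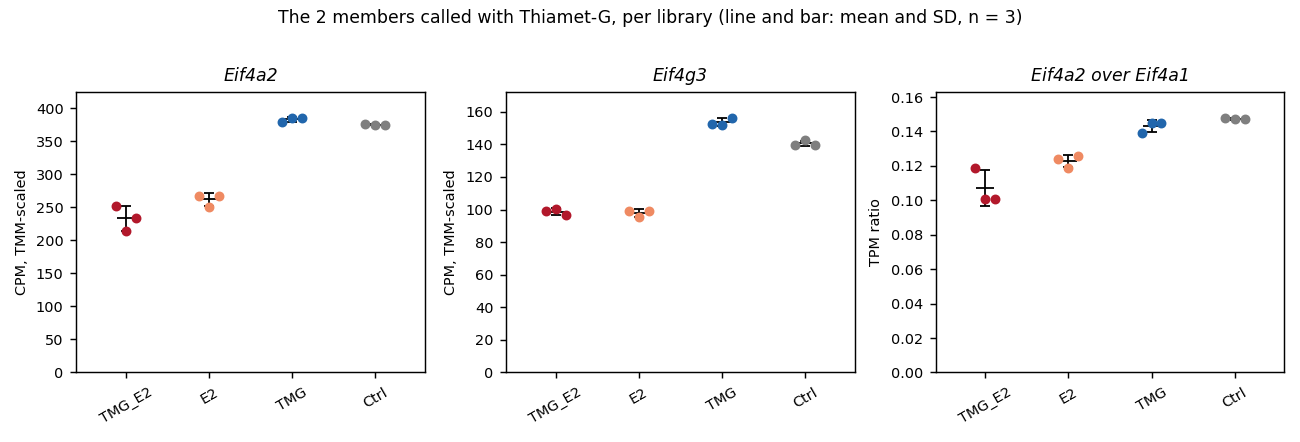
The 2 members called with Thiamet-G: TMM-scaled CPM of Eif4a2 (left) and Eif4g3 (middle), and the TPM of Eif4a2 over that of Eif4a1 (right), in each library, with the mean and SD of 3. Eif4a2 is at 214.6 to 251.2 CPM in TMG_E2 and 250.5 to 267.5 CPM in E2, and Eif4g3 at 152.1 to 156.4 CPM in TMG and 139.5 to 142.6 CPM in Ctrl libraries.

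The 2 Thiamet-G comparisons use separate libraries, and their log2 fold changes had the same sign in 24 of 47 members (Pearson's r 0.265, Spearman's rho 0.211 across genes), with no member called in both. Whether the Thiamet-G effect differed with estradiol was tested by the interaction, the change in TMG_E2 over E2 minus that in TMG over Ctrl. By edgeR 0 of 47 members were called (beside 0.931% of all genes), 2 had an unadjusted p under 0.05 (beside 11% of all genes), and DESeq2 called 0. For Eif4a2 the interaction was -0.20 ± 0.06 (adjusted p = 0.2) and for Eif4g3 -0.12 ± 0.05 (adjusted p = 0.372). Without TMG_E2 replicate 1, Eif4a2 passed (-0.25, adjusted p = 0.044). The 95% intervals of all members lay within -0.333 and 0.444.

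Translation genes outside the family were taken from 7 lists with 58 genes, of which 55 were tested. In E2 vs Ctrl 43 of them were called (78.2%, beside 82.7% of all genes), 15 higher (27.3%, beside 41.5%) and 28 lower (50.9%, beside 41.2%), with a median log2 of -0.14. The share called lies near that of all genes, and the counts of the short lists that follow are to be read against the same shares. All 5 termination and recycling genes fell, among them Gspt1, the release factor eRF3a (log2 -0.59 ± 0.03). Of 10 mitochondrial factors 8 fell and none rose, led by Tufm, the mitochondrial elongation factor EF-Tu, with 99.0 ± 0.904 CPM in E2 and 224.8 ± 1.94 CPM in Ctrl libraries (log2 -1.18 ± 0.04). The 8 include Mtrf1, which passed the filter only through libraries without estradiol. Of 8 elongation genes 6 fell, most of all Eef1e1, a scaffold of tRNA synthetases (-1.06 ± 0.05), and Eef2, the translocation factor, rose (0.11 ± 0.05, adjusted p = 0.0379; 0.02 and not called with libraries scaled by size alone, and adjusted p 0.0619 to 0.121 without E2 replicate 2 or 3 or any single Ctrl library). Of the 2 enzymes that make the hypusine of eIF5A, Dohh fell (-0.29 ± 0.10, adjusted p = 0.0139) and Dhps was not called (-0.10, adjusted p = 0.174).

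The regulators of initiation held the larger rises. Among 6 kinases and phosphatases of eIF2, 4 rose and 1 fell. Ppp1r15a (GADD34), which brings a phosphatase to eIF2 alpha, had 190.7, 214.9 and 206.1 CPM in E2 against 28.5, 29.9 and 27.6 CPM in Ctrl libraries (log2 2.83 ± 0.08, adjusted p = 1.16e-15). Eif2ak1, the heme-regulated kinase HRI, was at 390.4 ± 6.34 CPM in E2 and 101.4 ± 1.67 CPM in Ctrl libraries (log2 1.95 ± 0.04), and Eif2ak4, the amino acid sensor GCN2, fell (-0.50 ± 0.05). Of 11 TOR and MNK genes 4 rose and 4 fell. Here the eIF4E kinase genes went opposite ways, Mknk1 at 199.3 ± 2.37 CPM in E2 and 52.2 ± 2.1 CPM in Ctrl libraries (log2 1.93 ± 0.04) and Mknk2 at log2 -0.67 ± 0.05. Of 13 cap and poly(A) partners 6 rose and 3 fell, with Pdcd4, an inhibitor of eIF4A, highest (0.75 ± 0.06) and Denr, a factor of re-initiation, lowest (-0.55 ± 0.05).

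In TMG_E2 against TMG libraries 44 of the 55 partner genes were called (80%, beside 82.7% of all genes). Of the 55, 13 were higher (23.6%, beside 40.9%) and 31 lower (56.4%, beside 41.8%). The leading genes of the lists were mostly those of E2 vs Ctrl. Ppp1r15a was at log2 2.79 ± 0.08, Mknk1 at 1.97 ± 0.04, Larp1, a binder of TOP mRNAs, at 0.63 ± 0.03, Tufm at -1.26 ± 0.04, Eef1e1 at -1.18 ± 0.05, Mknk2 at -0.70 ± 0.05, Denr at -0.63 ± 0.05, Gspt1 at -0.55 ± 0.03, Eif2ak4 at -0.48 ± 0.05 and Dohh at -0.30 ± 0.10. With Thiamet-G, 1 of the 55 partner genes was called in TMG vs Ctrl (1.82%, beside 5.15% of all genes). This was Pdcd4, with 62.9, 70.1 and 60 CPM in TMG against 48.0, 46.8 and 43.9 CPM in Ctrl libraries (log2 0.48 ± 0.06, adjusted p = 0.000203). It was also higher in TMG_E2, with 93.1, 88.3 and 90 CPM, than in E2 libraries, with 80.2, 80.4 and 72.3 CPM (log2 0.22 ± 0.06, adjusted p = 0.0155). Neither pair of groups overlapped, as in 28.7% and 28.5% of all genes in these comparisons. In the interaction edgeR called 0 partner genes (beside 0.931% of all genes), with 4 at an unadjusted p under 0.05 (beside 11%). DESeq2, in contrast, called Eef1g, a subunit of eEF1 (log2 -0.16, adjusted p = 0.0343). Without TMG_E2 replicate 3, edgeR called Eef1g (-0.20, adjusted p = 0.0295) and Eef1b2, another subunit (-0.17, adjusted p = 0.0393). In TMG_E2 vs E2, 9 partner genes were called (16.4%, beside 12.8% of all genes), 4 higher and 5 lower; besides Pdcd4, Hbs1l, a ribosome rescue factor, and Mknk1 both rose by 0.12, while Pabpc4, a poly(A) binding protein (-0.24 ± 0.04), Eef1g (-0.18 ± 0.04), and Mtrf1, a mitochondrial release factor (-0.38 ± 0.09), fell. Mtrf1 was at 6.363 to 7.209 CPM in TMG_E2 and 8.39 to 9.226 CPM in E2 libraries, under the filter level of 10 CPM. It had passed the filter only through libraries without estradiol, where it was higher. Eef1g and Pabpc4 still passed when any 1 library of the TMG_E2 and E2 groups was left out. Pdcd4 did not pass without E2 replicate 3, Mtrf1 without E2 replicate 1 or TMG_E2 replicate 2, Hbs1l without E2 replicate 2 or 3, and Mknk1 when any single E2 library or TMG_E2 replicate 2 was left out. In TMG vs Ctrl, Pabpc4 was lower but not called in the main fit (log2 -0.15 ± 0.04, adjusted p = 0.0657). It was called lower there by library size alone, without the filter, with the replicate block, by DESeq2 and with only the compared groups. The other alternatives, among them leaving out any library, did not call it.

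The deposited counts set limits on single members. Reads that match several genes were divided, and 17 of the 51 members had counts that were not whole (tolerance 0.005) in at least 1 library, 10 of them in all 12. The 10 were Eif1, Eif3a, Eif3c, Eif3d, Eif3j1, Eif3j2, Eif4a1, Eif4a2, Eif4enif1 and Eif5b. The rises of Eif1 and Eif5b and the TPM ratio of Eif4a2 to Eif4a1 thus carry this limit. By the GENCODE M21 annotation, exons of 19 members overlap another gene, 11 on the opposite strand (for example Eif5b with 419 bases of Rev1), and reads of such stretches may belong to either gene.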

How the data were processed

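RNA of 12 G1E-ER4 libraries in 4 groups of 3 was sequenced as read pairs from stranded poly(A) libraries. Per the submitters' processing notes and design text, the authors checked reads with FastQC 0.11.2, used RSEM 1.2.22 to quantify genes on GRCm38 (the notes list Bowtie2 as well) and compared groups with EdgeR 3.14.0 in R 3.2.2. RSEM divides reads that match several genes, so the deposited expected counts can be fractional, and the deposited TPM values are scaled by the authors for length and depth. The sources used here do not give RSEM's strand setting.

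Expected counts were rounded and tested with edgeR 4.0.16 (quasi-likelihood, TMM scaling) in R 4.3.3, all 12 libraries in 1 fit with a mean per group. As in the design text, genes over 10 CPM in at least 2 libraries were kept (8273). P-values were adjusted by Benjamini-Hochberg over all of these, and called means adjusted p under 0.05. The SE was computed from the F statistic. CPM is TMM-scaled, while TPM served for levels between genes and, as log2 ratios, for paralogs (exact permutation test). Alternatives were RLE size factors, library size alone, other filters, DESeq2 1.42.0, a replicate block, only the compared groups, and leaving out each library.

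Members and lists were chosen with earlier results of these data known, so none is independent support. Named genes are the members called in a Thiamet-G comparison, the highest and lowest of each role group in E2 vs Ctrl, every member outside the filter, and in each partner list the called genes with the largest change each way; other members are named to account for them. Per-library spread (chi-square over degrees of freedom between replicates 8.67 to 13.2 in TMG_E2 and 2.41 to 4.17 in the other groups) showed no pair of replicates that agreed within sampling noise. Deviations of same-numbered libraries correlated above 0.1 for every number in TMG_E2 vs E2 (0.285, 0.182 and 0.201), E2 vs Ctrl (0.108, 0.278 and 0.112) and TMG_E2 vs TMG (0.525, 0.149 and 0.412), but not in TMG vs Ctrl (0.088, 0.03 and 0.188). The labels give no pairing. Libraries with different numbers were not correlated for comparison, so these values cannot decide whether the numbers pair the libraries.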

Additional observations from a re-analysis of the deposited data

How the results depend on the processing

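In E2 vs Ctrl and TMG_E2 vs TMG the counts of members and partner genes called in either direction stayed within 1.5 times of those given above under every alternative run, but the members called higher in E2 vs Ctrl were 5 by library size alone, against 11. Leaving out 1 library gave 35 to 38 members in E2 vs Ctrl and 38 to 40 in TMG_E2 vs TMG, and the replicate block gave 11 higher and 28 lower, and 8 higher and 30 lower, as without it. Scaling by library size alone moved the median of all genes by -0.098 in both and turned the sign of 4 members in E2 vs Ctrl and 6 in TMG_E2 vs TMG, none of them called before. Those that passed with the changed sign were Eif3d (-0.0948 in E2 vs Ctrl, adjusted p = 0.0218; -0.0945 in TMG_E2 vs TMG, adjusted p = 0.0222) and Eif2s2 (-0.0864 in TMG_E2 vs TMG, adjusted p = 0.0442).

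The few Thiamet-G calls depended on the settings, and so did the calls over all genes. Of 8273 genes, TMG vs Ctrl had 426 calls in the main fit and by DESeq2, 411 by library size alone and 675 with the replicate block. The calls were 567 of 16108 genes with no filter, 749 of 8005 with only the compared groups, and 196 to 257 without 1 library. In TMG vs Ctrl the members called were 0 by library size alone, 0 with no filter, 2 with only the compared groups in the fit, and 0 when any library was left out (0 to 0). In TMG_E2 vs E2 they were 2 with RLE size factors, 4 by library size alone, 5 with the replicate block, 2 by DESeq2, 0 with only the compared groups, and 0 to 6 without 1 library. Of 8273 genes, 1055 were called there in the main fit, 1097 with RLE size factors and 1112 by library size alone. The replicate block gave 1454 and DESeq2 993. No filter gave 1232 of 16108 genes, only the compared groups 472 of 7779, and leaving out 1 library 656 to 1160. In the interaction 0 to 1 members were called without 1 library, beside 18 to 161 of all genes. DESeq2 called 98 of all 8273 genes in the interaction. Partner genes called in TMG vs Ctrl were 2 by library size alone, with no filter and by DESeq2, and 3 with the replicate block and with only the compared groups. In TMG_E2 vs E2 they were 5 with no filter, 3 with only the compared groups and 4 to 10 without 1 library (4 without E2 replicate 1 or 3), and in the interaction 1 by DESeq2 and 0 to 2 without 1 library (2 without TMG_E2 replicate 3). In TMG vs Ctrl, where same-numbered libraries correlated at 0.088, 0.03 and 0.188, the block kept 1 member. On CPM in place of TPM, the log2 ratio of Eif4e2 to Eif4e differed by 0.0575 in E2 vs Ctrl (0.156 on TPM) and 0.0781 in TMG_E2 vs TMG (0.188 on TPM). The causes of these shifts were not tested, except that leaving out libraries or groups leaves fewer samples. Depth limits what can be said of the genes at 0 to the level of 3 counts in a library.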
